A study of Mus musculus with 5 samples.

Results

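NF-kappaB genes were followed in cultured neural precursor cells of the mouse forebrain. The 10 genes were chosen by name, from results of these same libraries already known: the transcription factor subunits Rela, Relb, Nfkb1 and Nfkb2, the inhibitors Nfkbia, Nfkbib, Nfkbie and Nfkbiz, the feedback gene Tnfaip3 and the chemokine gene Ccl2. They are 10 of 46078 genes listed for each library, and 9 of them reached a mean of at least 1 TPM, which 13870 genes did. TPM is a gene's share of all transcripts after correction for its length, so that levels of different genes can be set side by side. Tnfaip3 did not reach that mean. Because the difference between 8 h and 1 h was known when the genes were chosen, their values are given as a description without a test.

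The cells were labelled NPC, came from the subventricular zone of adult C57BL/6 mice (C57BL/6j in the methods of the study) with no mutation, and were grown as neurospheres before plating on poly-D-lysine. All 5 libraries received PBS as a sham exposure, and RNA was isolated 1 h later in 2 libraries (replicates 1 and 2) and 8 h later in 3 libraries (replicates 13, 14 and 15). The labels give female mice of 5 to 8 weeks, whereas the methods of the study give an older age. Libraries of hydrogen peroxide exposure were not analysed here. The methods of the study define a replicate of these cells as a separate animal, while the labels do not say so for these libraries, whose spread may then be technical.

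NF-kappaB is a family of dimeric transcription factors held in the cytoplasm by IkappaB inhibitors. In the canonical pathway, the IkappaB kinase (IKK) marks the inhibitors for degradation, and Rela-containing dimers then enter the nucleus and induce, among others, the genes of their own inhibitors. In the non-canonical pathway, the precursor protein of Nfkb2 is processed and partners with Relb. In neural stem cells the pathway is known to respond to TNF and interleukin 1 and has been linked to proliferation and survival.

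The libraries do not differ by time alone. Library identifiers in the labels fall into an identifier series 1, with both 1 h libraries and 8 h replicate 14, and an identifier series 2, with 8 h replicates 13 and 15. In series 1, Xist was at most 0.0611 TPM and 4 Y-chromosome genes summed to 138 to 181 TPM, against the label of female mice. In series 2, Xist was at 165 and 200 TPM and the Y-chromosome genes summed to at most 0.0253 TPM. Mitochondrially encoded genes held 10.7% to 11.1% of the TPM in series 1 and 6.23% to 6.30% in series 2. Series 2 holds 8 h libraries alone, so time was compared within series 1 for each of the 9 genes that were fitted. The columns of the count table, which covers 7599 genes, summed to 13988166 to 18572154 counts, and 13681 to 13967 genes per library had at least 1 TPM. Neural precursor markers were all at or above 1 TPM (9 of 9), with summed levels of 11283 to 11807 TPM at 1 h and 11284 to 14478 TPM at 8 h. One of them, Slc1a3, named after its values were seen, was higher in all 8 h libraries. It was at 366 and 362 TPM at 1 h and at 589, 379 and 650 TPM in the 8 h replicates 13, 14 and 15. For the other precursor markers the groups overlapped. Of the microglia markers 0 of 8 had a mean of 1 TPM, with Aif1, Tmem119, C1qa and C1qb at 0 in every library and summed levels of 1.31 to 1.51 TPM at 1 h and 0.461 to 0.736 TPM at 8 h. Most of that sum was P2ry12, named after its values were seen and lower in all 8 h libraries. It was at 1.41 and 1.29 TPM at 1 h and at 0.488, 0.411 and 0.569 TPM in the 8 h replicates 13, 14 and 15. No other microglia marker kept the groups apart. Endothelial markers reached 1 TPM for 2 of 6 genes, with Cldn5 and Cdh5 at 0, and summed to at most 15.4 TPM at 1 h and at most 14.3 TPM at 8 h. Pericyte and fibroblast markers reached it for 0 of 6 genes, with Lum at 0, and their sums were 0.859 and 0.868 TPM at 1 h and 0.769 to 1.69 TPM at 8 h. Neuron markers reached it for 5 of 5 genes and summed to 273 to 279 TPM at 1 h and 210.4 to 463 TPM at 8 h. Most of that sum was Map2, at 210.2 and 217 TPM at 1 h and up to 405 TPM in 8 h replicate 14. The neuron markers Tubb3 and Syt1, named after their values were seen, were lower in all 8 h libraries. For the other neuron markers, Rbfox3, Map2 and Snap25, the groups overlapped. Of these, Map2 and Snap25 had a higher mean at 8 h and Rbfox3 a slightly lower mean, so the list did not fall as a whole. In the 1 h libraries Tubb3 stood at 39.8 and 42.9 TPM, in 8 h replicate 14 at 37.4 TPM and in the others of 8 h at no more than 19.3 TPM. Syt1 stood at 9.12 and 7.96 TPM, and at 3.36, 7.89 and 1.97 TPM for the 8 h replicates 13, 14 and 15. Ependymal markers reached it for 1 of 4 genes, with Tmem212 at 0, and summed to 23.7 to 27.5 TPM at 1 h and 16.3 to 18.8 TPM at 8 h. That gene, Foxj1, was lower in all 8 h libraries. It was at 22.4 and 26.7 TPM at 1 h and at 17.2, 15.4 and 14.4 TPM in the 8 h replicates 13, 14 and 15. For Rsph1 and Ccdc153 the groups overlapped. The part of these differences in the results was not tested.

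The DNA just upstream of these genes is shown because several of them are known targets of the factor that they encode or inhibit. RefSeq promoter windows of GRCm38.p6, with 250 bases before and 50 bases after a transcription start, were found for 6 of the 10 genes, in 9 windows. Nfkbiz, Nfkb1, Relb and Ccl2 had no entry. Both strands were searched for the kappaB consensus, a motif of 10 letters that stands in 4.51% of all 32851 windows. At least 1 match was found in 6 of the 9 windows. By gene, these belong to 4 of the 6, namely Nfkbia, Nfkbie, Nfkb2 and Tnfaip3, where 5.14% of all 27025 genes have a match. Windows of Rela and Nfkbib held no match, which says only that these letters are not in those windows. In the sequences below, written 5′ to 3′ on the strand of the gene, capitals mark a match to the kappaB consensus on either strand.
Nfkbia, chr12:55492648-55492897, minus strand: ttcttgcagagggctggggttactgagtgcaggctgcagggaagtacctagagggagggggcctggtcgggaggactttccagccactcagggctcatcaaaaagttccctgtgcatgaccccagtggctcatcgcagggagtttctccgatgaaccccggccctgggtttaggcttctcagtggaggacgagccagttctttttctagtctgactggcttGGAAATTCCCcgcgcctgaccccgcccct
Nfkbie, chr17:45555450-45555699, plus strand: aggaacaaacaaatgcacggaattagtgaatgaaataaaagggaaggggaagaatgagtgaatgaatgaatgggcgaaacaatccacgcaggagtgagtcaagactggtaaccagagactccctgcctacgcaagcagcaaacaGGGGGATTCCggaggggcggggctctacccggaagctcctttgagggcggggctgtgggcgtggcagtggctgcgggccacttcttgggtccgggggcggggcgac
Tnfaip3, chr10:19015411-19015547, minus strand: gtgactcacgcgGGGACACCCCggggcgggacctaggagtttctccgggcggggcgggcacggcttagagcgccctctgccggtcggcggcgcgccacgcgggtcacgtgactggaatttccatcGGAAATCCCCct
Nfkb2, chr19:46304688-46304717, plus strand: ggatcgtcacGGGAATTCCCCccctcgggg
Nfkb2, chr19:46304716-46304736, plus strand: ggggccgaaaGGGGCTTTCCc
Rela, chr19:5637291-5637482, plus strand, shown as a promoter without a match: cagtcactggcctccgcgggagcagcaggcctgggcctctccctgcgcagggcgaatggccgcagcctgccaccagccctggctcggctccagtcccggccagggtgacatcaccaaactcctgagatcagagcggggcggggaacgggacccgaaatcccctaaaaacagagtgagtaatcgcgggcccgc

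The match in Nfkbia starts 29 bases before the transcription start and reads as the motif on the opposite strand. In Nfkbie the match starts 106 bases before the start. In Tnfaip3 matches start 125 and 12 bases before one start, and the window of its other start holds no match. Nfkb2 has several starts. Before the most upstream of them, matches start 39 and 11 bases away, and a match on the other strand that overlaps the former starts 38 bases away, so that their capitals run together. In the windows of the other Nfkb2 starts, matches start 236 bases before one start and 225 bases before another, and these are not printed. Stretches that the GENCODE vM21 annotation places in an exon were left out, except for the short sites of Nfkb2. A match is a description of the sequence and does not show that the factor binds there.

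The level of Nfkbia was lower and that of Nfkb2 was higher in every 8 h library than in both 1 h libraries. Nfkbia (ENSMUSG00000021025, chr12:55489411-55492647, minus strand, GRCm38), which encodes the inhibitor IkappaB alpha, stood at a mean of 39.0 ± 1.87 TPM (SD, n = 2) at 1 h and 25.4 ± 3.12 TPM (SD, n = 3) at 8 h. Nfkb2 (ENSMUSG00000025225, chr19:46304737-46312090, plus strand), which encodes the p100 precursor of the p52 subunit, stood at 11.7 ± 1.34 TPM (SD, n = 2) and 20.2 ± 2.51 TPM (SD, n = 3). The remaining 8 genes differed by less between the group means on the log2 scale. Across the 10 genes, the 1 h and 8 h values were without overlap for 5, of which 3 were higher at 8 h (Rela, Nfkb1 and Nfkb2) and 2 were lower (Nfkbia and Nfkbiz). Of all 13870 genes at or above 1 TPM, no overlap was found for 33.1%, with 23.7% higher and 9.43% lower at 8 h. Nothing is read from the count of 5, since the same contrast was known when the genes were chosen. With TPM rescaled by median-ratio size factors, 3 of the 10 did not overlap (Nfkb2 higher, Nfkbia and Nfkbiz lower), while Rela and Nfkb1 overlapped.

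**Figure D1:**
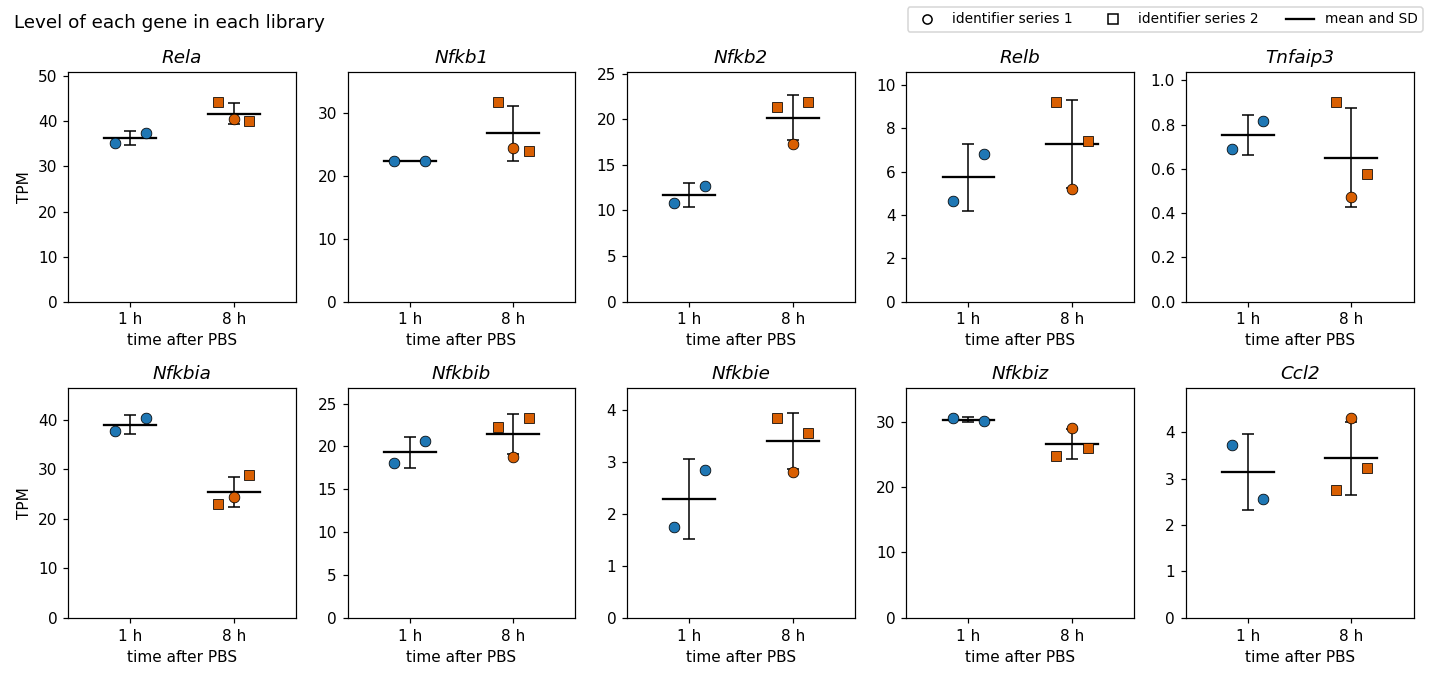
TPM of each of the 10 genes (vertical axes, each from 0) in the 1 h and 8 h libraries after PBS (horizontal axes). Points are libraries, circles identifier series 1 and squares series 2, and lines and bars are the mean and SD of a group. Nfkbia lies at 37.7 and 40.3 TPM at 1 h and at 22.9 to 28.9 TPM at 8 h, and Nfkb2 at 10.8 and 12.7 TPM at 1 h and at 17.3 to 21.9 TPM at 8 h.

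Among the subunits, Rela was the most abundant. Rela, the transactivating subunit of the canonical dimer, was at 35.2 and 37.4 TPM in the 1 h replicates 1 and 2, and at 44.3, 40.6 and 40.1 TPM in the 8 h replicates 13, 14 and 15. All 8 h libraries lay above both 1 h libraries, and the gap between the groups was 2.70 TPM. The means were 36.3 ± 1.51 TPM (SD, n = 2) and 41.7 ± 2.33 TPM (SD, n = 3), a log2 difference of 0.19 ± 0.10 (SE), or 0.16 within series 1. Here and for the other genes, the log2 difference is on the log2(TPM + 1) scale as 8 h minus 1 h, and its SE comes from the limma fit over all 13870 genes. In that fit the median difference of all genes was 0.10, so that Rela stood 0.09 above it.

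Nfkb1, which encodes p105 and its product p50, was at 22.4 TPM in both 1 h libraries and at 31.8, 24.5 and 24.0 TPM in the 8 h replicates 13, 14 and 15. The 8 h libraries were all higher, by as little as 1.61 TPM between the nearest values, and replicate 13 stood above the other two. Its log2 difference was 0.24 ± 0.15 (SE), and 0.12 within series 1. Without 8 h replicate 13 it was 0.11. Another annotated gene on the same strand, Gm43430, overlaps Nfkb1 but did not exceed 0.0715 TPM in any library.

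Nfkb2 was at 10.8 and 12.7 TPM in the 1 h replicates and at 21.3, 17.3 and 21.9 TPM in the 8 h replicates 13, 14 and 15. The groups were separated by 4.63 TPM, with the series 1 library (replicate 14) the lowest of the 8 h group. The 8 h mean was 1.72 times the 1 h mean, a log2 difference of 0.73 ± 0.16 (SE). A larger positive difference was seen for 3.17% of the tested genes. That rank is no test, as the contrast was known when the genes were chosen. Within series 1 alone the difference was 0.53. An antisense neighbour, Psd, overlaps 299 bases of the Nfkb2 gene and was at 6.23 to 10.2 TPM. Another antisense gene, AC114539.1, overlaps 1292 bases and has no TPM value. Whether TPM was computed by strand is not stated, so reads in such an overlap may not be told apart.

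Relb, the partner of p52, was at 4.65 and 6.81 TPM in the 1 h replicates and at 9.22, 5.19 and 7.44 TPM in the 8 h replicates 13, 14 and 15. The groups overlapped. Its log2 difference was 0.29 ± 0.27 (SE), and within series 1 alone it was -0.10. On omitting 1 h replicate 1 it became 0.05, and on omitting 1 h replicate 2 it became 0.52. Omission of 8 h replicate 13 gave 0.12, and that of 8 h replicate 14 gave 0.48. The 8 h libraries of series 2 were above both 1 h libraries, whereas the 8 h library of series 1 lay between them.

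Among the inhibitors, Nfkbia showed the largest difference. It was at 37.7 and 40.3 TPM in the 1 h replicates 1 and 2 and at 22.9, 24.4 and 28.9 TPM in the 8 h replicates 13, 14 and 15. The groups were separated by 8.78 TPM, and the 8 h library of series 1 lay between those of series 2. The 8 h mean was 0.652 times that at 1 h, and the log2 difference was -0.60 ± 0.13 (SE). Set against the median over all genes it was -0.71. Of the tested genes, 2.34% had a larger negative difference, a rank that is no test, as the contrast was known beforehand. Such ranks are given only for Nfkbia and Nfkb2, the genes that differed most. The difference within series 1 alone was -0.65. Mean per-base coverage of Nfkbia was 68.5 to 118.7 across the libraries. In such bulk samples, fewer cells that express a gene and less RNA per cell cannot be told apart.

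Nfkbib, which encodes IkappaB beta, was at 18.0 and 20.6 TPM in the 1 h replicates and at 22.2, 18.8 and 23.3 TPM in the 8 h replicates 13, 14 and 15. The groups overlapped, with a log2 difference of 0.14 ± 0.14 (SE) that was -0.03 within series 1. Omission of 1 h replicate 1 gave 0.05, that of 8 h replicate 15 gave 0.08, and that of either 1 h replicate 2 or 8 h replicate 14 gave 0.23. The Nfkbib gene overlaps Sirt2 by 778 bases on the opposite strand, and Sirt2 was at 82.9 to 119 TPM. Nfkbie, which encodes IkappaB epsilon, was far lower at 1.75 and 2.83 TPM at 1 h and 3.84, 2.79 and 3.55 TPM at 8 h in the same order. Its groups overlapped as well, through replicate 14 of series 1, and the log2 difference was 0.43 ± 0.22 (SE), or 0.22 within series 1. It was 0.19 without 1 h replicate 1 and 0.67 without 1 h replicate 2. Both inhibitors were above the 1 h libraries in series 2 and within their range in series 1.

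Nfkbiz encodes the atypical nuclear inhibitor IkappaB zeta, a cofactor for a subset of NF-kappaB target genes. It was at 30.5 and 30.0 TPM in the 1 h replicates and at 24.7, 29.1 and 26.0 TPM in the 8 h replicates 13, 14 and 15. The 8 h libraries were all lower, by 0.979 TPM between the nearest values. The log2 difference was -0.19 ± 0.12 (SE), and -0.06 within series 1.

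Of the feedback and target genes, Tnfaip3 encodes A20, a ubiquitin-editing enzyme that restrains signalling to IKK. It was at 0.689 and 0.817 TPM at 1 h and at 0.903, 0.472 and 0.578 TPM in the 8 h replicates 13, 14 and 15, with a mean per-base coverage of 0.695 to 1.52. The groups overlapped, and a difference between them was not detectable at this depth. Ccl2 encodes a chemokine that attracts monocytes. It was at 3.73 and 2.57 TPM at 1 h and at 2.76, 4.31 and 3.24 TPM at 8 h in the same order, with overlapping groups and a log2 difference of 0.10 ± 0.23 (SE), or 0.37 within series 1. Without 1 h replicate 2 or without 8 h replicate 14 its sign turned (-0.11 and -0.04). The highest Ccl2 value was that of replicate 14, the 8 h library of series 1.

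In order of the mean TPM over all libraries, the genes ran from Rela through Nfkbia, Nfkbiz, Nfkb1, Nfkbib, Nfkb2, Relb, Ccl2 and Nfkbie to Tnfaip3. Several neighbours in that order did not differ beyond their spread. Rela exceeded Nfkbia in 3 of 5 libraries, and Nfkbia exceeded Nfkbiz in 3 of 5. Nfkbiz exceeded Nfkb1 in 4 of 5 libraries, and Ccl2 exceeded Nfkbie in 2 of 5. The other neighbours kept their order in 5 of 5 libraries. Between Rela and Nfkbia the order depended on the time, as Nfkbia was the higher at 1 h and Rela the higher at 8 h in every library.

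The balance of inhibitor and subunit transcripts was described by ratios of TPM within a library. Nfkbia relative to Rela was 1.07 and 1.08 in the 1 h replicates and 0.516, 0.602 and 0.722 in the 8 h replicates 13, 14 and 15. The classical inhibitors Nfkbia, Nfkbib and Nfkbie together, relative to the summed TPM of the 5 Rel subunits (with Rel included), were at 0.762 and 0.778 at 1 h and at 0.448, 0.511 and 0.578 at 8 h. Both ratios were lower in all 8 h libraries. The share of Nfkbia among the 3 classical inhibitors was 65.6% and 63.2% at 1 h and 46.8%, 53.1% and 51.8% at 8 h. The ratio of Nfkb2 to Nfkb1 was 0.480 and 0.565 at 1 h and 0.671, 0.706 and 0.911 at 8 h, higher in all 8 h libraries. Relb relative to Rela overlapped between the groups, at 0.132 and 0.182 at 1 h and 0.208, 0.128 and 0.186 at 8 h. These ratios rest on the same values as the levels and are no independent evidence.

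**Figure D2:**
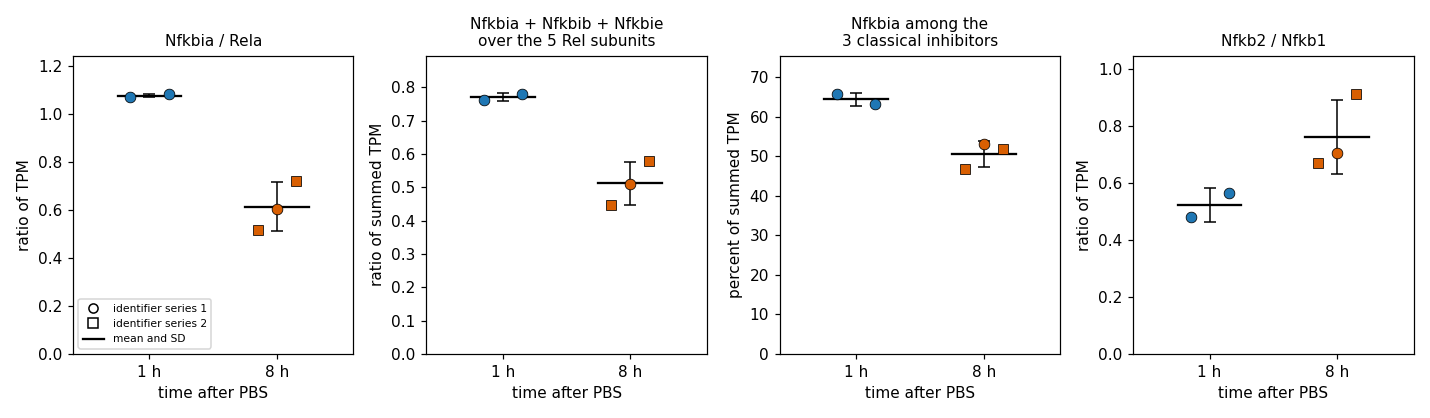
Ratios of TPM within a library, and the percent of Nfkbia in the summed TPM of the 3 classical inhibitors (vertical axes, each from 0), at 1 h and 8 h after PBS (horizontal axes). Circles are libraries of identifier series 1 and squares of series 2, with the mean and SD of each group. Nfkbia to Rela is 1.07 and 1.08 at 1 h and 0.516 to 0.722 at 8 h.

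The count table holds 8 of the 10 genes, without Tnfaip3 and Ccl2, and its columns do not all match the TPM tables. After a common offset per gene, the column named 8 h replicate 13 lay within 0.1 log2 of the TPM table of that library for 24.3% of 7470 genes and of the table of replicate 14 for 77.7%. The column named replicate 15 did so for 40.4% with its own table and 77.7% with that of replicate 13. The column named replicate 14 matched its own table for 24.3% and resembled the table of 1 h replicate 2 most, at 38.5%. Each column is reported under the name it carries. CPM (counts scaled to the column total) carries no length correction, so it is compared here within a gene.

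Nfkbia had 613 and 773 counts in the 1 h columns and 509, 437 and 452 in the columns named 8 h replicates 13, 14 and 15, or 43.8 and 46.8 CPM against 28.2, 30.2 and 24.3 CPM. All 8 h columns were lower, and the edgeR log2 fold change was -0.74 ± 0.14 (SE). Nfkb2 was at 24.6 and 29.5 CPM at 1 h and 38.8, 33.2 and 44.3 CPM at 8 h, with a log2 fold change of 0.49 ± 0.17 (SE). All its 8 h columns were higher. Nfkb1 was at 48.8 and 47.1 CPM at 1 h and 53.9, 49.5 and 60.1 CPM at 8 h, again higher in all 8 h columns. Nfkbiz was at 79.5 and 79.4 CPM at 1 h and 76.5, 59.4 and 59.1 CPM at 8 h, lower in all 8 h columns. Rela overlapped in the count table, with 68.5 and 74.1 CPM at 1 h and 78.8, 73.7 and 79.3 CPM at 8 h. Its overlap came only through the column named 8 h replicate 14. Nfkbib, Nfkbie and Relb overlapped in the counts as they did in TPM. In all, 4 of the 8 genes did not overlap in CPM, where 18.7% of all 7599 genes did not (11.6% higher and 7.04% lower), and these 4 had the same direction in TPM. Both tables placed the groups apart in the same direction for 11.9% of 7471 shared genes. As the contrast was known when the genes were chosen, this is a description too, and the column named replicate 14 has no TPM table that it matches closely.

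**Figure D3:**
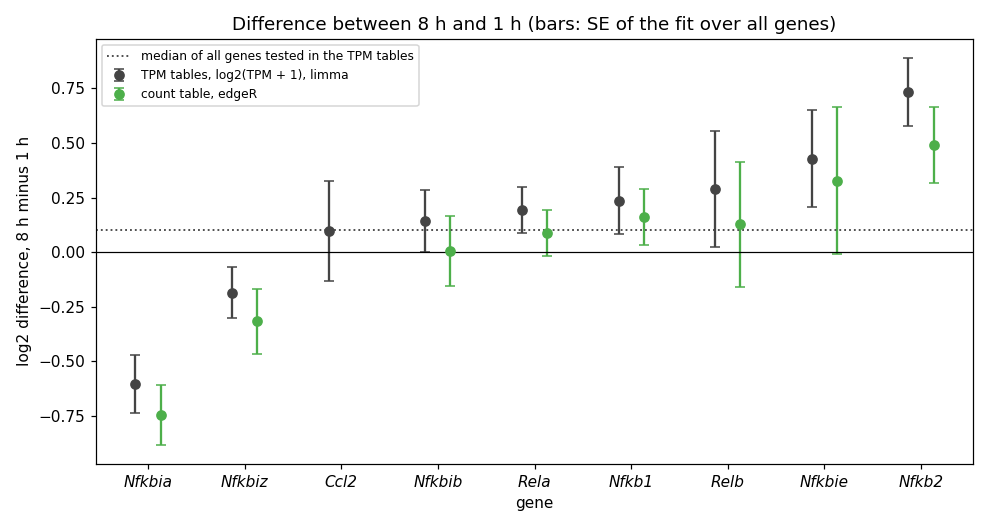
Difference between 8 h and 1 h on the log2 scale (vertical axis) for the genes that passed the filter (horizontal axis), from the TPM tables with limma on log2(TPM + 1) and from the count table with edgeR. Bars are the SE and the dotted line is the median of all genes in the TPM tables, 0.10. Nfkbia is lowest in both (-0.60 and -0.74) and Nfkb2 highest (0.73 and 0.49), and Ccl2 has no count value.

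The other genes of the pathway were taken from 6 lists by role, with 88 genes, and compared between 8 h and 1 h. These lists, too, were drawn up with earlier results of these data known, so their shares are a description. The 8 h group holds both identifier series, while the 1 h group holds series 1 alone. None of the 54 listed genes that reached 1 TPM passed the test. A call required a limma adjusted p no higher than 0.05 and a log2 difference beyond 1 in either direction. It was met by 0 of these 54 genes, and by 0.0433% of all genes (6 of 13870). Without 8 h replicate 14, 3 of the 54 were called (Il1r1, Il1rap and Ier3), but time and identifier series then cannot be told apart. With all libraries, the smallest adjusted p (limma, Benjamini-Hochberg) was 0.285. At an unadjusted p under 0.05 there were 9 genes, all higher at 8 h, or 16.7% of those tested beside 12.3% of all genes (9.52% higher and 2.82% lower). The groups did not overlap for 14 higher and 5 lower genes, or 35.2% of those tested, beside 33.1% of all genes (23.7% higher and 9.43% lower). The median log2 difference of the 54 genes was 0.07, against 0.10 for all genes tested. In the count table, edgeR called 0 of 39 pathway genes and 0 of all 7590 genes tested (0%). There 2 of the 39 had an unadjusted p under 0.05 with edgeR and 3 with DESeq2, which also called 0.

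Transcripts of the main ligands of the canonical pathway were not detected. Tnf, Il1a and Il1b were listed at 0 in all libraries, and so were the targets Cxcl1, Ccl5, Ccl20, Il6, Csf2, Lcn2 and Saa3, which together make 10 of the 88 genes. These were named after their values were seen. Of the 20 ligands and receptors, 8 reached 1 TPM, and their median log2 difference was 0.03. The receptor for TWEAK, Tnfrsf12a, had the highest level in the list at 199 ± 3.74 TPM (SD, n = 2) at 1 h and 202 ± 25.5 TPM (SD, n = 3) at 8 h. The TNF receptor gene Tnfrsf1a was at 125 ± 46.2 and 111 ± 11.8 TPM, with overlapping groups. Its CPM was higher in all 8 h columns, at 149 and 150.0 CPM at 1 h and 159.6, 163 and 181 CPM at 8 h. Il1r1, the interleukin 1 receptor, was at 2.26 and 1.77 TPM at 1 h and 5.21, 2.86 and 6.40 TPM at 8 h. All 8 h libraries were higher, with a log2 difference of 0.90 ± 0.30 (SE) and a limma adjusted p of 0.369. Its coreceptor Il1rap overlapped between the groups, at 143 and 119 TPM at 1 h and 59.2, 126 and 65.1 TPM at 8 h, where the low values are those of series 2. Tnfrsf19 was lower in all 8 h libraries, at 40.6 ± 1.88 and 33.5 ± 2.44 TPM, with a limma adjusted p of 0.403.

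Of 22 adaptors and upstream kinases, 20 reached 1 TPM, with a median log2 difference of 0.09. The groups did not overlap for 6 higher and 2 lower genes (40% of the list, beside 33.1% of all genes). Tab2, an adaptor of the kinase TAK1, was at 79.1 and 70.4 TPM at 1 h and 67.0, 65.4 and 42.6 TPM at 8 h, lower in all 8 h libraries. Irak1, a kinase downstream of the interleukin 1 receptor, was at 44.9 ± 2.95 and 51.2 ± 1.96 TPM without overlap. In the count table both overlapped, with Tab2 at 200.3 and 189 CPM at 1 h and 177, 207 and 156 CPM at 8 h. For Tab2 this came only through the column named 8 h replicate 14, which no TPM table matches closely. Irak1 was at 136 and 133 CPM at 1 h and 133, 132 and 128 CPM at 8 h. The linear ubiquitin ligase subunit Rnf31 was at 9.12 and 6.92 TPM at 1 h and 13.4, 10.2 and 10.8 TPM at 8 h (log2 difference 0.47 ± 0.18, SE). Its partner Rbck1 overlapped, at 47.1 ± 3.06 and 51.6 ± 3.53 TPM. Traf5, a TNF receptor adaptor, was at 2.18 ± 0.495 and 4.02 ± 1.18 TPM, with a log2 difference of 0.64 ± 0.26 (SE). Its libraries were at 2.53 and 1.83 TPM at 1 h and 4.16, 2.78 and 5.13 TPM at 8 h. The lowest 8 h value, that of series 1, lay close to the higher 1 h value.

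Transcripts of all 3 subunits of the IKK complex were present. The kinase genes Chuk and Ikbkb stood at 57.2 ± 6.82 and 31.2 ± 4.02 TPM (SD, n = 2) at 1 h and at 58.3 ± 4.49 and 32.5 ± 0.362 TPM (SD, n = 3) at 8 h. Their log2 differences were 0.03 ± 0.12 and 0.06 ± 0.12 (SE). The regulatory subunit gene Ikbkg was at 12.7 and 24.4 TPM at 1 h and 12.6, 10.8 and 11.3 TPM at 8 h. The 8 h libraries were all lower, but 1 h replicate 1 lay next to 8 h replicate 13, and 1 h replicate 2 stood apart from the rest. In the count table Ikbkg overlapped, at 76.5 and 69.9 CPM at 1 h and 70.8, 78.1 and 70.6 CPM at 8 h. The list of other Rel and atypical IkappaB genes held 7 genes, some of which encode neither kind of protein. Of these, 5 reached 1 TPM (Rel, Nkiras1, Nkiras2, Ankrd42 and Commd1), and the groups overlapped for all 5. The atypical IkappaB genes Bcl3 and Nfkbid, named after their values were seen, did not reach it. Nfkbid was at 0.300 and 0.340 TPM at 1 h and 1.31, 0.405 and 0.962 TPM at 8 h, higher in all 8 h libraries. Among the 5, Commd1 was at 25.9 ± 3.90 and 30.7 ± 4.72 TPM. The IkappaB-binding Ras-like genes were at 17.6 ± 4.08 and 17.8 ± 3.84 TPM (Nkiras2) and at 9.24 ± 1.09 and 8.68 ± 2.39 TPM (Nkiras1). In the count table Nkiras2 was higher in all 8 h columns, at 74.6 and 74.3 CPM at 1 h and 76.6, 88.4 and 75.0 CPM at 8 h.

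Other feedback inhibitors numbered 10, of which 8 reached 1 TPM, and the groups did not overlap for 3 higher and 1 lower (50% of the list, beside 33.1% of all genes). Itch, a ubiquitin ligase that works with A20, was at 65.3 and 60.6 TPM at 1 h and 85.0, 81.7 and 88.8 TPM at 8 h. All 8 h libraries were higher in TPM, with a log2 difference of 0.43 ± 0.10 (SE) and a limma adjusted p of 0.285. In the count table its groups overlapped, at 165 and 158 CPM at 1 h and 207, 123 and 193 CPM at 8 h. This came only through the column named 8 h replicate 14, which no TPM table matches closely. Otulin, which removes linear ubiquitin chains, was at 23.0 and 23.2 TPM at 1 h and 31.8, 24.5 and 31.4 TPM at 8 h (means 23.1 ± 0.177 and 29.2 ± 4.07 TPM). The groups did not overlap, but 8 h replicate 14, of series 1, lay close to the 1 h values. The A20 partner Tax1bp1 stood at 121 ± 12.5 and 120.1 ± 5.42 TPM, with overlap.

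Of 26 target genes, 10 reached 1 TPM, and their median log2 difference was 0.29. The groups did not overlap for 4 genes (40% of the list), all higher at 8 h, where 33.1% of all genes did not overlap and 23.7% were higher. Ier3, an early response gene linked to survival, was at 9.92 and 10.1 TPM at 1 h and 33.8, 16.1 and 40.0 TPM at 8 h. Its log2 difference of 1.40 ± 0.37 (SE) had a limma adjusted p of 0.309, and the lowest 8 h value was that of series 1. Its counts overlapped, at 8.01 and 8.23 CPM at 1 h and 12.9, 5.25 and 25.0 CPM at 8 h. That overlap came only through the column named 8 h replicate 14, which no TPM table matches closely. Lif, a cytokine of the interleukin 6 family, was at 6.85 and 5.15 TPM at 1 h and 10.3, 7.88 and 9.75 TPM at 8 h, and at 16.9 and 11.7 CPM against 19.1, 32.3 and 21.5 CPM. Lif was higher in all 8 h libraries in TPM and in all columns named 8 h in CPM, with adjusted p-values of 0.369 (limma) and 0.966 (edgeR). Sod2, the mitochondrial superoxide dismutase, was at 62.6 TPM in both 1 h libraries and at 74.0, 63.0 and 81.2 TPM at 8 h, so that replicate 14 lay close to the 1 h values. Its CPM overlapped, at 164 and 167 CPM at 1 h and 164, 174 and 179 CPM at 8 h. Bcl2l1, which encodes the survival protein Bcl-xL, overlapped at 68.0 and 62.8 TPM and 26.6, 71.2 and 46.9 TPM. Vcam1, an adhesion receptor of neural stem cells, overlapped too, at 25.4 ± 2.12 and 29.6 ± 8.03 TPM.

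**Figure D4:**
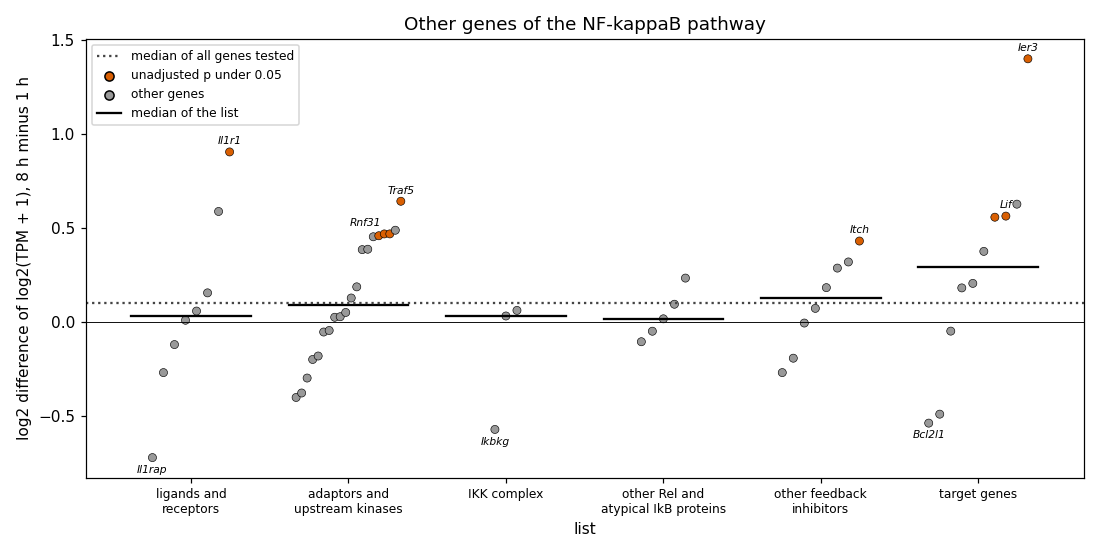
Log2 difference between 8 h and 1 h on the log2(TPM + 1) scale (vertical axis) for the 54 pathway genes tested, by list (horizontal axis). Points are genes, orange for an unadjusted p under 0.05, with the median of each list as a bar and that of all genes, 0.10, as a dotted line. Ier3 is the highest point at 1.40 and Il1rap the lowest at -0.72, and none passed the adjusted threshold.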

How the data were processed

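RNA-seq libraries were stranded and poly-A selected, and the submitters' processing notes name bcl2fastq 2.19.1.403, CASAVA, DESeq2 and GRCm38. The authors aligned the reads with STAR through nf-core/rnaseq and counted them with featureCounts. What they deposited as a table of counts are whole numbers of reads per gene, not normalized. The tables the authors deposited per library give TPM, FPKM and mean per-base coverage, made with a tool not named in the sources at hand. Rows of the same gene identifier were added up. The deposited FPKM values were not used beyond a check of depth against coverage. No column of values was left without a sample (0).

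The genes and lists were chosen with earlier results of these data known. Log2(TPM + 1) of the 13870 genes with a mean of at least 1 TPM was fitted with limma 3.58.1 (intensity trend, no covariate, R 4.3.3). Counts were fitted with edgeR 4.0.16 (quasi-likelihood, TMM, filterByExpr), and DESeq2 1.42.0 (alpha 0.1) was an alternative. The edgeR SE was taken from the fold change and its test statistic. A call needed a Benjamini-Hochberg adjusted p no higher than 0.05 together with a log2 difference beyond 1 in either direction, and all tests were two-sided. A TPM of a group is a mean ± SD over libraries.

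Named are all 10 genes, any pathway gene called, up to 3 genes per list by mean TPM, up to 2 per list with the largest difference among those without overlap, and 3 genes with the nearest pattern for each of Nfkbia, Tnfaip3 and Ccl2. Markers came from 6 lists. Alternatives were a pseudocount of 0.1, median-ratio scaling, no filter, no trend, no fold threshold, the identifier series as a term or series 1 alone, and each library left out. The fold changes of the other genes in the count table, and the overlap of groups under other scaling or without a library, were added after seeing the data.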

Additional observations from a re-analysis of the deposited data

How the results depend on the processing

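Limma on TPM called 6 genes of all tested, 4 with pseudocount 0.1, 0 without a filter, 19 with the identifier series as a term and 0 to 573 when a library was left out. The 573 arose on omitting 8 h replicate 14, after which time and series cannot be told apart. Omitting 8 h replicate 13 gave 1 gene, and omitting any of the other libraries gave 0. Pathway genes called numbered 0 to 3 when a library was left out, with Il1r1, Il1rap and Ier3 called without 8 h replicate 14, and 0 under the other settings. Count table calls were 0 under every setting run. Median-ratio scaling lowered the median of all genes by 0.10, Rela to 0.09 and Nfkbiz to -0.29.

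Nfkbia ranged from -0.71 to -0.54 in TPM and from -0.80 to -0.62 in counts over the settings, and Nfkb2 from 0.53 to 0.84 and from 0.26 to 0.64. The count limits -0.62 and 0.26 are those with the series as a term, which takes the series from column names that the TPM tables do not bear out. Nfkbib and Relb changed sign in TPM within series 1 or with series as a term (-0.03 and -0.10). Ccl2 did so without 1 h replicate 2 (-0.11) and without 8 h replicate 14 (-0.04). In counts, Nfkbib changed sign without 1 h replicate 1 (-0.06) and without the column named 8 h replicate 14 (-0.05), and Relb without 1 h replicate 1 (-0.08) and without the column named 8 h replicate 15 (-0.02). The count difference of Rela (0.09) became 0.03 on omitting 1 h replicate 1, 0.15 for 1 h replicate 2 and 0.14 for the column named 8 h replicate 14. That of Nfkb1 (0.16) was 0.09 without the column named 8 h replicate 15. That of Nfkbie (0.33) became 0.03 on omitting 1 h replicate 1, 0.71 for 1 h replicate 2 and 0.19 for the column named 8 h replicate 15. Of the 10 genes, those free of overlap in TPM numbered 6 on omitting 1 h replicate 1 (53.8% of all genes), 8 on omitting 1 h replicate 2 (54.4%), 6 for 8 h replicate 13 (39.8%), 8 for 8 h replicate 14 (65.3%) and 5 for 8 h replicate 15 (39.3%). With series as a term, the estimate rests on series 1, whose only 8 h library is taken to have the spread of the others. Tnfaip3 was not fitted except without a filter. No paired analysis was possible because the groups share no replicate number.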

Other observations

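The genes with the nearest patterns were found by the root-mean-square distance between log2(TPM + 1) profiles centred over the 5 libraries. For Nfkbia they were Dlc1 (distance 0.0409), Il20rb (0.0536) and Rusc2 (0.0571), among 12192 genes compared. Dlc1 stood at 23.9 and 25.3 TPM in the 1 h libraries. In the 8 h replicates 13, 14 and 15 it stood at 14.4, 14.2 and 17.9 TPM. Rusc2 was at 27.7 and 30.4 TPM at 1 h and 15.3, 16.8 and 20.3 TPM at 8 h, and Il20rb, a cytokine receptor subunit, was lower at 2.50 and 2.88 TPM and 1.08, 1.39 and 1.90 TPM. Each was lower in all 8 h libraries, which is no separate observation. They were picked for their likeness to Nfkbia in these same libraries.

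For Tnfaip3, whose own level was under 1 TPM, the nearest were Gpx4 (0.0292), Tarbp2 (0.0309) and Gnb5 (0.0336). For Ccl2 they were RP23-16J8.6 (0.0255), Naa35 (0.0347) and Tgif1 (0.0492). Naa35, a subunit of an acetyltransferase, was at 75.5 and 58.8 TPM at 1 h and 63.7, 86.4 and 72.0 TPM at 8 h. A likeness over 5 libraries is a description, and all values share the same libraries and depth.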
